A study of Mus musculus with 16 samples.

Results

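The genes described are those still carried in the deposited expression table under the name of a mouse testis cDNA clone of the 1700 series. They were chosen by name only, as every row whose gene name is 1700 followed by 3 digits, a capital letter, 2 digits and Rik, which gave 272 of 13101 rows. Such names were given by RIKEN to full-length cDNA clones whose gene had no other name, and the 1700 prefix marks a library made from adult mouse testis. Transcripts were measured by polyA-enriched bulk RNA-seq in sorted spermatogenic cells of C57BL/6J male mice of 8 weeks. The 16 libraries form 8 groups of 2: spermatogonia, spermatocytes labelled MI, spermatocytes labelled MII and spermatids, each from 2 genotypes. The genotypes were wild type and Tex10f/-; Stra8iCre, called Tex10-deficient here, in which a floxed and a null allele of Tex10 are combined with a Cre driven by the promoter of Stra8, a gene switched on in spermatogonia. The series asks what changes in these cells without Tex10, which encodes a nuclear protein involved in ribosome maturation.

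Spermatogonia are the dividing stem and progenitor cells of the testis. Spermatocytes pass through meiosis, and late prophase spermatocytes already transcribe many genes whose products are used after meiosis. Haploid round spermatids then build the acrosome and the flagellum and replace histones before transcription stops. The testis also transcribes many long noncoding RNAs (lncRNAs), and most of these have no assigned function.

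The name describes a source and not a shared function. In RefSeq, 114 of the 272 genes are protein-coding, 148 are lncRNA genes and 10 are pseudogenes. For 234 the clone name is still the RefSeq symbol, and 38 have since been renamed, so the word uncharacterised does not hold for all of them. The renamed genes include Cfap206 (1700003M02Rik) and Cfap161 (1700026D08Rik), which encode axoneme proteins of cilia and flagella. They also include H2bl1 (1700024P04Rik), a histone H2B variant, Llcfc1 (1700034O15Rik), a sperm protein needed for fusion with the egg, and Majin (1700123I01Rik), which tethers telomeres to the nuclear envelope in meiotic prophase. Of 264 genes with a position in GENCODE M21 (GRCm38), 36 share exon bases with a gene of the other strand that is also in the table, and no source used here says whether reads were counted by strand. Reads of such a gene and of its partner may therefore not be told apart. Transcripts of 18 of the 264 matched another gene at 95% identity or more over at least 50% of their length, and the split of reads between such copies is uncertain. The reference holds 282 further genes named in the same way that are not analysed here.

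Several facts of the libraries touch these results. Tex10 itself was at 50.02 and 55.4 FPKM (fragments scaled by transcript length and library size) in wild-type spermatogonia against 13.6 and 19.0 in Tex10-deficient ones, and its levels did not overlap between genotypes in any cell type. Title and cell type field disagree for 6 of the 8 Tex10-deficient libraries. Titles were used, and judged by the 272 genes alone 8 of 8 of these libraries correlated best with wild-type cells of the titled type. Wild-type MII replicate 2 correlated best with spermatids by the 272 genes, and with MII over all genes. The MII libraries carried markers of somatic cells: the summed level of 9 Leydig cell markers was 1186 to 2035 FPKM in the 4 MII libraries and 19.6 to 286 FPKM in the other 12. Tex10-deficient spermatid replicate 2 had the 286 FPKM, and its 5 Sertoli cell markers summed to 134 FPKM against 27.7 to 39.9 FPKM in the other spermatid libraries. The 15 meiotic prophase markers summed to 1169 to 1598 FPKM in MI libraries and to 59.6 to 359 FPKM in MII libraries. In spermatids they summed to 1173 to 1519 FPKM, so this sum does not separate MI from spermatids. Of 15 spermatogonial markers, 12 were in the table, and these summed to 223 to 381 FPKM in spermatogonia and to 80.7 to 256 FPKM elsewhere. In spermatids most of this sum was Dmrtb1, at 147 to 250 FPKM. The median of the 12 markers was 0.224 to 1.39 FPKM in spermatids, against 14.1 to 20.8 FPKM in spermatogonia. The 13 immune cell markers summed to 314 to 558 FPKM in spermatogonia, to 7.48 to 17.1 FPKM in MI and to 234 to 583 FPKM in MII. In spermatids they summed to 209 to 313 FPKM, of which Aif1 alone made 198 to 289 FPKM. The 15 round spermatid markers summed to 2393 to 3158 FPKM in spermatids and to at most 381 FPKM elsewhere.

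Promoters are shown for 6 of the genes. The axoneme gene Cfap161 had the largest rise from spermatogonia to MI spermatocytes. The rise of 1700021F07Rik from MII spermatocytes to spermatids (log2 change 4.31) was the last of the 6 largest, and its levels are not described further. Next come 2 genes that rose almost wholly after MI (H2bl1 and the lncRNA 1700016P04Rik), and the 2 lncRNAs that were lower in Tex10-deficient cells. Sequences are from RefSeq on GRCm38.p6, read 5′ to 3′ on the strand of the gene. For the 3 coding genes the 250 bases before the start are shown, and for the 3 lncRNAs the 250 bases before and 50 after it. Capitals mark GTTGCC, a core of the X-box bound by RFX factors, and TGACG, the core of a cAMP response element (CRE), on either strand. A full CRE, TGACGTCA, contains TGACG.
Cfap161 (1700026D08Rik), chr7:83794840-83795089, minus strand: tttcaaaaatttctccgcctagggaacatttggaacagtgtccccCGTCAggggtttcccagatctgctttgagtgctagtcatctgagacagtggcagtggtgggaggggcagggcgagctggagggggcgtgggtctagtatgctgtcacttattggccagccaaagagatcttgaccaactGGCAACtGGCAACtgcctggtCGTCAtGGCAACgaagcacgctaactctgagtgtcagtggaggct
1700021F07Rik, chr2:173522342-173522591, plus strand: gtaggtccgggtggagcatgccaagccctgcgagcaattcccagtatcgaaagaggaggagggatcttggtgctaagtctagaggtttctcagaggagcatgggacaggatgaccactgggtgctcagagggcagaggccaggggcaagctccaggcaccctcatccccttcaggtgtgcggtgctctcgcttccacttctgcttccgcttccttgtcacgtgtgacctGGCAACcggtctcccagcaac
H2bl1 (1700024P04Rik), chr13:98984566-98984815, minus strand: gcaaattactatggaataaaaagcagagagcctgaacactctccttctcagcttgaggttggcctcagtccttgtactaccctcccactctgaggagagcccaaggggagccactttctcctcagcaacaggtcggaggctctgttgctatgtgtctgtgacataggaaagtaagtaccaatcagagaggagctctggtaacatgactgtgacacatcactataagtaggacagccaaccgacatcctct
1700016P04Rik, chr6:13413087-13413386, plus strand: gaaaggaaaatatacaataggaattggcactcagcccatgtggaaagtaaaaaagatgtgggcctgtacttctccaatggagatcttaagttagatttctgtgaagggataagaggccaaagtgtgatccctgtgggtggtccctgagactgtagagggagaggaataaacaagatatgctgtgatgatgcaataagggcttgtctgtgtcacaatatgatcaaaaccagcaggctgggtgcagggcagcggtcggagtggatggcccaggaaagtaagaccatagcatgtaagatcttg
1700012D01Rik, chr10:127666873-127667172, plus strand: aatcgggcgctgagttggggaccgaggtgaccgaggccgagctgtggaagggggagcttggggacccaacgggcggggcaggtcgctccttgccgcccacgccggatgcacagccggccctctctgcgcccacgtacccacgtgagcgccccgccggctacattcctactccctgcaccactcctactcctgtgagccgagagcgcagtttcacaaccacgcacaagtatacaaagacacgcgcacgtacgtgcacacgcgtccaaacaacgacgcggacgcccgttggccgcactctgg
1700065L07Rik, chr6:73470972-73471271, minus strand: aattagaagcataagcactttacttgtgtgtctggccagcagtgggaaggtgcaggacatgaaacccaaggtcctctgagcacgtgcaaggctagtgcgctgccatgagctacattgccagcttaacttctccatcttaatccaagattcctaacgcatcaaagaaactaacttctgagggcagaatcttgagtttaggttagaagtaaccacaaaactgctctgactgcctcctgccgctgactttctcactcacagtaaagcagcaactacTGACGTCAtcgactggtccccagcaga

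The Cfap161 promoter held GTTGCC at 3 places, 66, 59 and 39 bases before the start, and TGACG at 205 and 45 bases before it. In 1700021F07Rik GTTGCC lay 21 bases before the start. Among the genes with larger rises from MII to spermatids, 1700007K09Rik, 1700015F17Rik, 1700074H08Rik and 1700109G14Rik held neither GTTGCC nor TGACG. Of these larger rises, that of 1700023C21Rik belonged to a gene with TGACG alone. The 1700065L07Rik window held a full TGACGTCA 23 bases after the start, and none of these letters stood in the windows of H2bl1, 1700016P04Rik and 1700012D01Rik. Of the 220 genes with a promoter in the RefSeq table, 18.6% held GTTGCC on either strand in the window of 250 bases before to 50 after the start, against 12.7% of 27025 promoters and 13.8% of the promoters of genes in the expression table. TGACG stood in 22.7% of them, against 21.02% and 31.2%. TGACGTCA stood in 1.82%, against 1.88% and 3.42%, and TATAAA in 9.55%, against 14.2% and 7.22%. CNGTT, the core of the site of MYB factors, stood in 89.1%, against 80.4% and 79.0%. The median GC content of the windows was 51.2%, against 52.7% and 60.3%. These are descriptions, and a match of letters is not a binding site.

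As a group, these genes were at their highest in spermatids. In the wild type, 241 of the 272 (88.6%) had their highest mean level in spermatids, 24 in MI spermatocytes, 4 in spermatogonia and 3 in MII spermatocytes. Over all 13100 genes used, 37.1% were highest in spermatids, and among 335 genes named from other testis clone series the share was 81.5%. Among 329 genes with other Rik clone names it was 36.2%. No test between these lists was made. The median gene had 81.5% of its FPKM, summed over the 4 wild-type means, in spermatids, against 22.8% over all genes. Their levels summed to 358 and 395 FPKM in the wild-type spermatogonia libraries, 5810 and 7314 in MI, 1376 and 3385 in MII, and 25703 and 24098 in spermatids. These sums were 0.182% and 0.198% of all FPKM of the table in spermatogonia, 2.09% and 2.42% in MI, 0.522% and 1.36% in MII, and 5.02% and 4.51% in spermatids. The number at 1 FPKM or more went from 72 and 73 in the wild-type spermatogonia libraries to 201 and 197 in MI and 266 and 270 in spermatids. In both wild-type spermatogonia libraries 87 of the genes were listed at 0. In bulk RNA of this kind, fewer cells of a type and less RNA per cell cannot be told apart.

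**Figure D1:**
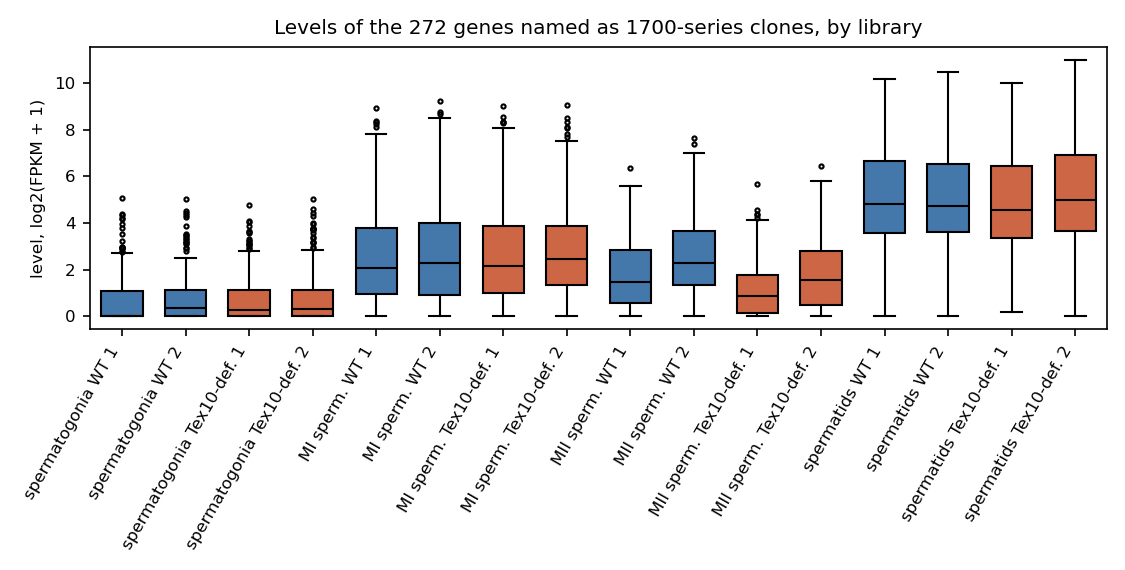
Levels of the 272 genes as log2(FPKM + 1) in each of the 16 libraries (boxes span the quartiles, lines are medians, whiskers reach to 1.5 times the box height, blue is wild type and orange Tex10-deficient). Spermatid boxes stand highest in both genotypes, and within MII spermatocytes replicate 2 stands above replicate 1 in both.

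The 10 highest genes made up between 28.6% and 46.7% of the members' sum in each library. In wild-type spermatids, 66 genes had a mean of 100 FPKM or more. The most abundant was Cfap206, at 1077 and 1422 FPKM in wild-type spermatids and already at 481 and 596 FPKM in MI. Next came 1700019M22Rik, a pseudogene in RefSeq, at 1155.5 and 826 FPKM in wild-type spermatids and only 23.7 and 14.7 in MI. The third, Stpg4 (1700011E24Rik), a sperm-tail PG-rich repeat gene, was at 794 and 685 FPKM in spermatids and 304 and 432 in MI, and the fourth was Cfap161 at 626 and 845 in spermatids. FPKM is scaled by length, so these levels can be compared between genes. Coding genes were more abundant than lncRNAs, with a median of 70.8 FPKM in wild-type spermatids against 15.3 FPKM. The 10 pseudogenes had a higher median there, of 162 FPKM. Most genes of each class were highest in spermatids: 107 of 114 coding genes, 125 of 148 lncRNAs and 9 of 10 pseudogenes. Of the 24 genes highest in MI, 18 were lncRNAs and 5 were coding.

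From spermatogonia to MI spermatocytes, the wild type showed 159 rises and 2 falls among the 271 genes tested. A gene was called when its Benjamini-Hochberg adjusted p in limma was under 0.05 over all 13099 genes tested. Across those genes 26.3% rose and 25.7% fell, with a median log2 change of -0.07, whereas the median of the 271 was 1.61. Among the 335 genes named from other testis clone series the median was 1.20. Cfap161 was at 1.32 and 0.838 FPKM in spermatogonia and at 316 and 359 in MI, a log2 change of 7.35 by limma (SE 0.56, adjusted p = 1.21e-06). The pseudogene 1700123L14Rik was at 0.789 and 1.25 FPKM in spermatogonia and at 169 and 227 in MI (log2 change 6.62, SE 0.45). Both had non-overlapping libraries by a wide margin. Cabcoco1 (1700040L02Rik), which encodes a cilium-associated calcium-binding coiled-coil protein, was at 1.01 and 0.709 FPKM in spermatogonia and at 140 and 187 in MI (log2 change 6.46, SE 0.56). Cfap206 was at 5.75 and 6.04 FPKM in spermatogonia before its 481 and 596 in MI (log2 change 6.28, SE 0.60). The lncRNA 1700029M20Rik was at 2.06 and 3.51 FPKM in spermatogonia and at 217 and 312 in MI (log2 change 6.14, SE 0.46). The pseudogene 1700001J11Rik completed the 6 largest rises, at 1.15 and 2.95 against 180 and 221 FPKM, and it has 2 near copies.

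The 2 falls at this step were 1700013H16Rik, a coding gene of the X chromosome, and Oip5os1 (1700020I14Rik), a lncRNA also known as Cyrano that directs the decay of a microRNA. The first was at 20.0 and 20.5 FPKM in wild-type spermatogonia and at 3.88 and 1.4998 in MI (log2 change -2.60, SE 0.42, limma adjusted p = 0.00021). It rose again to 16.1 and 12.3 FPKM in spermatids (log2 change 2.11, limma adjusted p = 0.0012). Oip5os1 was at 32.3 and 31.7 FPKM in spermatogonia, 11.8 and 10.4 in MI and 20.2 and 17.9 in spermatids. Its fall (log2 change -1.45, SE 0.28) and its later rise (log2 change 0.73, limma adjusted p = 0.048) were both called, the second close to the threshold.

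From MI spermatocytes to spermatids, 184 of the 271 genes rose and 8 fell in the wild type, against 22.6% and 19.8% of all genes tested (42.3% in either direction). The median log2 change was 2.54, against -0.01 over all genes and 2.09 among the 335 genes of other testis clone series. This step and the one before share the MI libraries, so a high MI value raises one change and lowers the other. The largest rise was that of 1700027A15Rik, a lncRNA at chromosome 1 from 72984844 to 73025507 (GRCm38), from 1.48 and 0.511 FPKM to 300.4 and 210 (log2 change 7.03, SE 0.75, limma adjusted p = 1.03e-05). It shares exon bases with Tnp1 on the other strand, a transition protein gene that was itself at 14.9 and 12.3 FPKM in MI and at 2592 and 3301 in spermatids, and reads of the pair cannot be told apart here. The lncRNA 1700016P04Rik, with no such partner, was at 1.91 and 0 FPKM in MI and at 268 and 156 in spermatids (log2 change 6.91, SE 0.65). H2bl1 was at 5.07 and 5.35 FPKM in MI and at 854 and 544 in spermatids (log2 change 6.78, SE 0.66). Coding gene 1700034E13Rik was at 5.33 and 2.27 FPKM in MI and 629.6 and 334 in spermatids (log2 change 6.66, SE 0.74). Spermatid replicate 1 was the higher of both wild-type libraries for each of these late genes, and both stood far above MI. The further coding genes, 1700001C19Rik and 1700008P02Rik, went from at most 0.995 FPKM in MI to at least 50.6 FPKM in spermatids.

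The 8 falls from MI to spermatids came from genes highest in meiosis. Coding gene 1700006A11Rik was at 98.9 and 167 FPKM in MI and at 13.2 and 15.0 in spermatids (log2 change -3.10, SE 0.53, limma adjusted p = 0.00035). The lncRNA 1700042G15Rik went from 51.7 and 102 FPKM to 12.2 and 15.3 (log2 change -2.32, SE 0.43). The lncRNA 1700020N18Rik, at 5.01 and 11.7 FPKM in MI, was listed at 0 in 1 spermatid library and stood at 1.02 in the other. Coding gene 1700102P08Rik was at 331 and 317 FPKM in MI and at 84.9 and 57.4 in spermatids (log2 change -2.20, SE 0.44). All 4 had been called as rises from spermatogonia to MI. The lncRNAs 1700016L04Rik, at 15.7 and 31.7 against 3.24 and 5.68 FPKM, and 1700009C05Rik, at 14.5 and 27.8 against 3.18 and 8.19 FPKM, also fell, but neither call held without wild-type MI replicate 2 or without wild-type spermatid replicate 1 (limma adjusted p from 0.082 to 0.11), and that of 1700009C05Rik not with a pseudocount of 0.1 either (limma adjusted p = 0.105). Majin (1700123I01Rik), whose product acts in meiotic prophase, was at 6.05 and 2.50 FPKM in spermatogonia, 7.23 and 5.04 in MI and 1.99 and 1.27 in spermatids, and its fall was called (log2 change -1.43, limma adjusted p = 0.018).

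Put together, the calls at both steps gave a few combinations. In the wild type, 85 genes rose at both steps, 97 only passed the threshold as a rise from MI to spermatids, and 67 only as a rise from spermatogonia to MI. A further 7 rose and then fell, 2 fell and then rose (1700013H16Rik and Oip5os1), 1 fell at the second step alone (Majin) and 12 passed at neither. Missing the threshold at a step does not show that a gene was steady there. Shares of these combinations over all genes are not given here, so the counts are descriptions. Whether any combination was more common among these genes than among others was not tested. Both steps use the same MI libraries, so their calls are not independent. By class, 79 of 114 coding genes and 73 of 147 tested lncRNAs rose from spermatogonia to MI, and 90 and 88 rose from MI to spermatids.

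**Figure D2:**
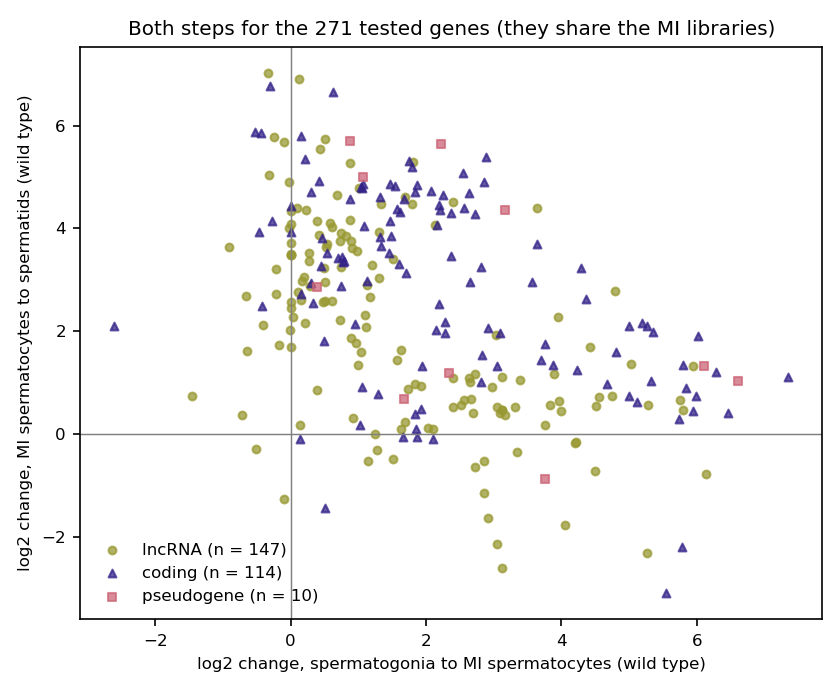
Log2 change of each of the 271 tested genes from spermatogonia to MI (horizontal) against MI to spermatids (vertical) in the wild type, by RefSeq class. Points lie along both positive arms, with Cfap161 at the far right (7.35) and 1700027A15Rik at the top (7.03), and few points lie below 0 on either axis.

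Some renamed genes were put into 2 groups after their values had been seen. Whether each product has a place in the sperm cell was not checked here. The 8 genes of cilia and flagella (Cfap77, Cfap97d1, Cfap157, Cfap161, Cfap206, Cfap299, Cabcoco1 and Stpg4) had a median log2 change of 5.22 from spermatogonia to MI, with 7 called rises, and of 1.16 from MI to spermatids, with 3. The 8 genes grouped under the sperm surface, the acrosome or testis expression were Spaca9, Llcfc1, Spata46, Tex44, Tex45, Tex48, Ms4a19 and Ms4a20, though not every name refers to these. Their median was 1.88 at the first step, with 6 called rises, and 3.48 at the second, with 8. Cfap77 (1700101E01Rik) was the flagellar gene without a called rise at the first step, at 2.71 and 3.29 FPKM in spermatogonia, 2.85 and 1.19 in MI and 34.8 and 53.7 in spermatids. Cfap97d1 (1700006E09Rik) was at 0 and 0.418 FPKM in spermatogonia, 3.12 and 1.92 in MI and 119 and 79.2 in spermatids. Llcfc1 was listed at 0 in both spermatogonia libraries and stood at 1.68 and 1.86 FPKM in MI and at 93.4 and 68.9 in spermatids. Spaca9 (1700026L06Rik), a protein of the acrosome and of flagellar microtubules, was at 15.7 and 11.96 FPKM in MI and at 327 and 184 in spermatids. The difference between these name groups was not tested.

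Levels in the MII libraries did not, on balance, lie between those in MI and in spermatids. From MI to MII, 30 of the 271 genes rose and 99 fell, against 30.0% and 27.2% of all genes (57.2% in either direction), with a median log2 change of -0.32. The median was also -0.32 among the 335 genes of other testis clone series. Without wild-type MII replicate 1 the median of the 271 was 0, against 0.09 over all genes. Without replicate 2 it was -0.66, against -0.02. From MII to spermatids 253 rose and 0 fell, against 38.8% and 35.0% of all genes (73.8% in either direction; median of the 271, 3.10), and at an unadjusted p under 0.05 there were also 0 falls. Among the rises into MII, H2bl1 was at 43.5 and 61.0 FPKM there and 1700027A15Rik at 11.4 and 23.0. Coding gene 1700012A03Rik was at 0.175 and 0.260 FPKM in MI, 7.60 and 7.67 in MII and 86.8 and 51.9 in spermatids. Among the falls, 1700006A11Rik was at 1.92 and 6.82 FPKM in MII, and 1700102P08Rik at 12.7 and 36.7. Levels in the 2 wild-type MII libraries differed, with 226 genes higher in replicate 2 and 38 lower, and a median gap of 0.88 on the log2 scale against 0.45 over all genes. Germ cell marker sums moved with this: the 13 late spermatocyte markers summed to 354 and 1024 FPKM in replicates 1 and 2, while the 9 Leydig markers summed to 1826 and 1186. The 13 immune cell markers went up, at 317 and 583 FPKM. Sertoli cell markers summed to 170 and 152 FPKM, and myoid and endothelial markers to 648 and 633. Their part in the levels in MII was not tested.

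The 4 genes with the most even means over the wild-type cell types, among those with at least 5 FPKM on average, were 1700123O20Rik, Mtres1, Oip5os1 and 1700052K11Rik. Coding gene 1700123O20Rik ranged from 5.70 FPKM in MII to 13.02 FPKM in MI, and it shares exon bases with Acin1. Mtres1 (1700021F05Rik), which encodes a mitochondrial transcription rescue factor, was at 5.64 and 6.501 FPKM in spermatogonia, 14.6 and 12.3 in MI, 12.7 and 7.32 in MII and 16.8 and 13.7 in spermatids. Another lncRNA, 1700052K11Rik, which shares exon bases with Tlk2, ranged from 3.34 to 15.4 FPKM. Among the most abundant in spermatogonia were also 1700094D03Rik, a coding gene at 17.7 and 22.1 FPKM there and at 82.1 and 127 in spermatids, and the lncRNA 1700001L05Rik, at 19.2 and 19.1 FPKM there and at 64.7 and 66.7 in spermatids.

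Most of the called steps were shared by Tex10-deficient cells. From spermatogonia to MI 180 genes rose and 2 fell, against 26.5% and 24.7% of all genes. From MI to spermatids 191 rose and 7 fell, against 23.6% and 18.8%. These steps share no library with the wild-type steps. At the first step 150 rises were shared, which is 94.3% of the wild-type rises and 83.3% of the Tex10-deficient ones, against 84.4% and 83.5% for the rises over all genes. At the second step 177 were shared, 96.2% and 92.7%, against 87.3% and 83.5% over all genes, and no gene was called in opposite directions at either step. Both falls of the first step and 7 of the 8 falls of the second were called in both genotypes, and over all genes 77.4% and 77.1% of the wild-type falls were. The highest cell type was the same in both genotypes for 252 of the 272 genes, and 248 were highest in Tex10-deficient spermatids.

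Between the genotypes, 0 of the 271 genes were called in each of the 4 cell types by limma. Over all genes 2 (0.0153%) were called in spermatogonia, 22 (0.168%, of which 0.0534% higher and 0.115% lower) in MI, 1 (0.00763%) in MII and 0 in spermatids. At an unadjusted p under 0.05 there were 10 of the 271 (3.69%) in spermatogonia, 32 (11.8%) in MI, 88 (32.5%) in MII and 11 (4.06%) in spermatids. Over all genes the shares under that p were 6.60%, 5.84%, 13.3% and 2.17%. The median log2 difference, Tex10-deficient minus wild type, was 0.00 in spermatogonia, 0.08 in MI and 0.02 in spermatids. In MII it was -0.67, against -0.02 over all genes. An F test of whether the difference varied between cell types called 0 of the 271 genes and 0.0% of all genes, with 46 of the 271 (16.97%) under an unadjusted p of 0.05, against 6.49% of all genes. No label ties the libraries of a group to different animals, so p-values here measure only the spread between samples, which may be technical.

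**Figure D3:**
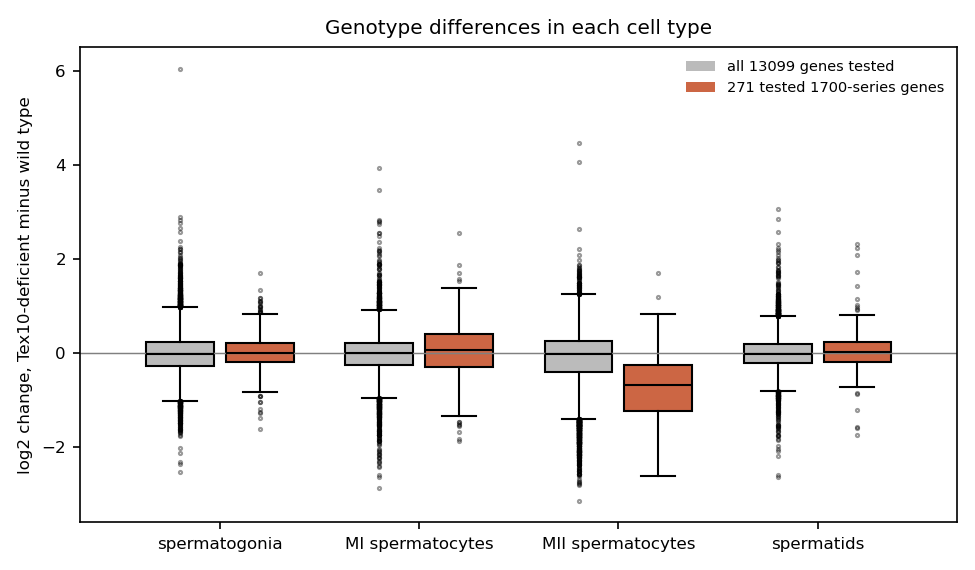
Log2 difference between Tex10-deficient and wild-type libraries (limma estimates) in each cell type, for all 13099 tested genes (grey) and the 271 tested 1700-series genes (orange); boxes span the quartiles, whiskers reach to 1.5 times the box height. Medians are near 0 in 3 cell types, and in MII the orange box lies below 0 with a median of -0.67.

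Averaged over the 4 cell types, 2 lncRNAs were lower in Tex10-deficient cells and 0 genes were higher, against 0.0611% and 0.0382% of all genes (0.0992% in either direction). The first, 1700012D01Rik, was at 0.304 and 0.660 FPKM in wild-type spermatogonia, 11.4 and 12.3 in MI, 8.48 and 7.47 in MII and 14.8 and 19.0 in spermatids. In Tex10-deficient libraries it was at 0.668 and 0 FPKM in spermatogonia, 7.24 and 3.06 in MI, 2.05 and 1.53 in MII and 4.65 and 4.01 in spermatids. Both genotypes overlapped in spermatogonia, and in the other 3 cell types each Tex10-deficient library lay below each wild-type one. The average log2 difference was -1.19 (SE 0.18, limma adjusted p = 0.026). In spermatids alone it was -1.74, with the smallest p of the 271 there, and missed the threshold (limma adjusted p = 0.39).

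The second, 1700065L07Rik, was listed at 0 in all 4 spermatogonia libraries. In the wild type it was at 17.3 and 17.6 FPKM in MI, 3.31 and 3.76 in MII and 16.3 and 14.1 in spermatids. In Tex10-deficient libraries it was at 6.00 and 7.16 FPKM in MI, 0.531 and 1.01 in MII and 10.2 and 7.82 in spermatids, so the genotypes did not overlap in any of these 3 cell types. The average log2 difference was -0.84 (SE 0.14, limma adjusted p = 0.034), with -1.29 in MI (limma adjusted p = 0.11) and -1.37 in MII (limma adjusted p = 0.074). Both averages depended on settings: with a pseudocount of 0.1, after quantile normalization or without the MII libraries neither gene was called. Without the MII libraries the average of 1700012D01Rik was -1.03 (limma adjusted p = 0.14). Leaving out each of the 16 libraries in turn also changed which genes were called. In these 16 fits the call of 1700012D01Rik was lost in 10, with averages from -1.32 to -1.06, and that of 1700065L07Rik in 13, with averages from -0.89 to -0.79.

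**Figure D4:**
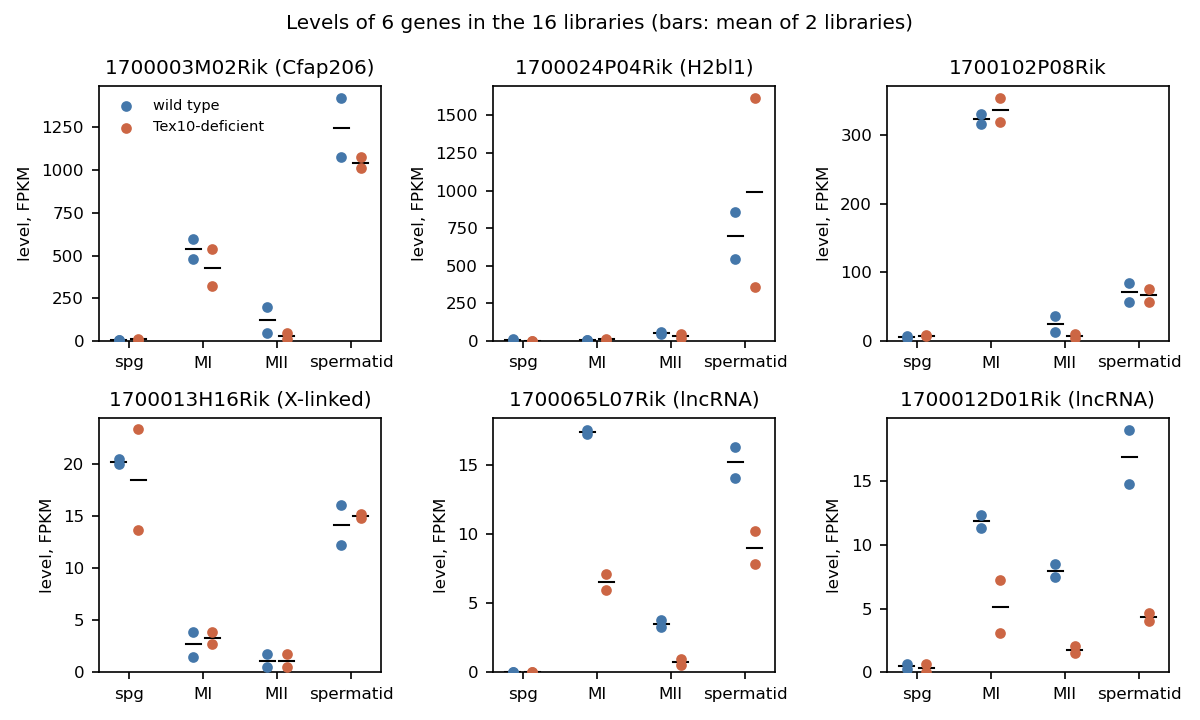
Levels in FPKM (vertical, linear from 0) of 6 genes in the 16 libraries by cell type (spg, spermatogonia), with wild type in blue, Tex10-deficient in orange and bars at the mean of 2 libraries. Cfap206 rises from MI, H2bl1 is highest in spermatids with replicates far apart, 1700102P08Rik peaks in MI, 1700013H16Rik dips in meiosis, and the 2 lncRNAs are lower in Tex10-deficient MI, MII and spermatid libraries.

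In MII spermatocytes 230 of the 271 genes had an estimate below 0. By limma over the 8 groups none was called, but 6 were called lower with median-of-ratios scaling (0.557% of all genes), 12 after quantile normalization (1.14%), and 22 or 25 with a replicate block (1.91% or 2.24%). Both Tex10-deficient libraries lay below both wild-type ones for 99 genes (36.5%), against 18.0% of all genes, and above them for 9 (3.32%), against 17.3%. The 5 genes with the smallest p had a limma adjusted p of 0.074. The lncRNA 1700029M20Rik was at 9.38 and 37.7 FPKM in wild-type MII and at 2.86 and 4.18 in Tex10-deficient MII (log2 difference -2.16, SE 0.46). The pseudogene 1700123L14Rik was at 27.2 and 95.3 against 8.23 and 13.6 FPKM (log2 difference -2.17, SE 0.45). The lncRNA 1700020N01Rik was at 4.38 and 7.53 against 0.364 and 0.336 FPKM (log2 difference -2.33, SE 0.49). Another lncRNA, 1700051A21Rik, was at 10.4 and 27.0 against 3.09 and 3.52 FPKM, and it shares exon bases with Slc13a5, which was at 0.906 and 9.42 against 0.258 and 0.738 FPKM. The median difference of -0.67 was smaller in size than the median shift of 0.83 from wild-type MII replicate 1 to replicate 2. It was -1.11 without wild-type MII replicate 1, where 77 genes (28.4%) were called lower, against 9.21% of all genes. It was -0.23 without wild-type MII replicate 2, where 0 were called, against 0.0229% of all genes. Without Tex10-deficient MII replicate 1 the median difference was -0.37, against 0.08 over all genes. Without Tex10-deficient MII replicate 2 it was -0.97, against -0.15. Germ cell markers moved the same way in these libraries: the 13 late spermatocyte markers summed to 354 and 1024 FPKM in the wild type against 149 and 274, and the 15 round spermatid markers to 132 and 353 against 59.5 and 123. Somatic marker sums did not all move alike. The 9 Leydig markers summed to 1826 and 1186 against 2035 and 1621 FPKM. The 6 myoid and endothelial markers summed to 648 and 633 against 866 and 1017 FPKM. The 5 Sertoli cell markers summed to 170 and 152 against 185 and 136 FPKM, and the 13 immune cell markers to 317 and 583 against 234 and 312. Their part in the difference was not tested.

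In MI spermatocytes the smallest p belonged to the X-linked coding gene 1700080O16Rik. It was at 1.21 and 0.827 FPKM in the wild type and at 8.38 and 4.84 in Tex10-deficient MI (log2 difference 1.88, SE 0.36, limma adjusted p = 0.063). The lncRNA 1700052I22Rik was at 1.03 and 0 FPKM against 6.22 and 8.66 (log2 difference 2.55, limma adjusted p = 0.19), and coding gene 1700001F09Rik, which has 10 near copies, at 7.46 and 5.38 against 21.3 and 20.7 (log2 difference 1.58, limma adjusted p = 0.35). The lncRNA 1700028P15Rik was at 6.37 and 11.8 FPKM against 1.21 and 2.41 (log2 difference -1.82, limma adjusted p = 0.32). In each of these the genotypes did not overlap. Fitted without the MII libraries, 5 genes (1.85%) were called in MI, 4 higher and 1 lower, among them these 4, against 0.518% of all genes. Over the 271 genes, 58 (21.4%) lay higher in both Tex10-deficient MI libraries than in both wild-type ones, against 15.7% of all genes, and 45 (16.6%) lower, against 18.4%.

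The X chromosome carried 7 of the genes and the Y chromosome 0. Most genes of the X chromosome are silenced in late prophase spermatocytes, and part of them are transcribed again in spermatids. In wild-type MI all 7 were low, with a median of 1.12 FPKM and a highest mean of 5.85 FPKM, and 5 of the 7 were highest in spermatids. Pseudogene 1700084M14Rik was at 8.01 and 3.68 FPKM in wild-type MI and at 575 and 198 in wild-type spermatids. In Tex10-deficient libraries it was at 19.8 and 20.5 FPKM in MI and at 297 and 1101 in spermatids. The lncRNA 1700010D01Rik was at 2.27 and 3.29 FPKM in wild-type MI against 4.99 and 7.93 in Tex10-deficient MI, and coding gene 1700020N15Rik at 0.676 and 0.306 against 1.57 and 3.51. These 3 have near copies. The estimate in MI was above 0 for 6 of the 7 X-linked genes, with a median of 0.96, against 149 of the other 264, with a median of 0.07. None of the 7 was called, and the difference between these sets was not tested. The lncRNA 1700011M02Rik was listed at 0 in both wild-type MI libraries and reached 42.4 FPKM in Tex10-deficient spermatid replicate 2 against 4.25 in replicate 1.

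In spermatids the Tex10-deficient replicates stood apart for several genes, chosen here after their values were seen. H2bl1 was at 362 and 1615 FPKM in Tex10-deficient replicates 1 and 2, on either side of the 854 and 544 of the wild type. The order was alike for 1700034E13Rik, at 256 and 1160.2 against 629.6 and 334 FPKM, and for 1700019M22Rik, at 777 and 2024 against 1155.5 and 826. Over the 272 genes 160 were higher in Tex10-deficient spermatid replicate 2 than in replicate 1 and 112 lower, with a median gap of 0.51 on the log2 scale, against 0.39 between the wild-type spermatid libraries. Groups without overlap were near the background here: 35 genes (12.9%) were higher and 35 lower in both Tex10-deficient libraries, against 11.7% and 15.9% of all genes. The smallest p in spermatids, that of 1700012D01Rik, is given above. Next came 1700011M02Rik (log2 difference 2.23), 1700003L19Rik (1.16), 1700041A01Rik (1.43) and 1700021N21Rik (2.10), and none was called. In spermatogonia 40 (14.8%) were higher and 27 (9.96%) lower, against 16.9% and 19.6%. The lowest p there were those of 1700007L15Rik, a lncRNA at 1.16 and 2.92 FPKM in the wild type and 4.70 and 5.89 in Tex10-deficient cells (log2 difference 1.11, limma adjusted p = 0.42), and 1700018L02Rik, at 0.457 and 0.240 against 1.998 and 2.94 (log2 difference 1.35, limma adjusted p = 0.54), which shares exon bases with Ak3. Coding gene 1700029P11Rik was at 2.22 and 2.86 against 7.46 and 14.6 FPKM (log2 difference 1.70, limma adjusted p = 0.55). Also among the 5 smallest p in spermatogonia, but lower in Tex10-deficient cells, were 1700020D05Rik and H2bl1. Their log2 differences were -1.27 (limma adjusted p = 0.58) and -1.60 (limma adjusted p = 0.69).

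By position, 36 of the 264 genes started within 1000 bases, on either side, of the start of a gene of the table that is read the other way. Where the 2 genes do not overlap, one stretch of DNA lies before both starts. Some of these pairs overlap, and there this does not hold. A pair with both genes among the 272 counts once for each gene. For 18 of the 36 the partner was highest in the same wild-type cell type, and the median Pearson r between the 2 genes over the 8 group means of log2 levels was 0.86. Unlinked genes can match in this way too, as 88.6% of the 272 and 37.1% of all genes were highest in wild-type spermatids. A share for unpaired genes is not given here. All pairs share the same libraries and the same order of cell types, so the count and this r are descriptions. The lncRNA 1700027I24Rik starts 31 bases from Acrv1, which encodes an acrosome protein, with an r of 0.91. Ccdc192 (1700011I03Rik) and the lncRNA 1700066O22Rik, both among the 272, start 28 bases apart, with an r of 0.97. Other pairs went apart: 1700028J19Rik starts 27 bases from 2410002F23Rik with an r of -0.98, and 1700007L15Rik 109 bases from Zfp148, a zinc finger gene, with an r of -0.93. Partners that share exon bases, such as Trim35 with 1700001G11Rik, are among the 36, and their levels are uncertain for the reason given above.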

How the data were processed

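Gene levels of 16 polyA-enriched libraries were used. The submitters' processing notes name STAR 2.7.6a, Cufflinks 2.2.1 and the build mm10, besides cutadapt, Trim Galore 0.6.3 and FastQC 0.10.1. Annotation, further scaling and the sorting of cells: not given in the sources used here. Values as deposited were FPKM to which the authors had added 1, which was subtracted. One gene with a letter in a cell, 1110002L01Rik, was left out. Read depth is unknown, and a 0 can be a failed estimate.

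Groups were taken from sample titles. Genes reaching 1 FPKM in 2 or more libraries (13099, and 271 of the 272 described) were tested as log2(FPKM + 1), with limma 3.58.1 (R 4.3.3, eBayes with trend) over the 8 groups at once (8 residual degrees of freedom), with Benjamini-Hochberg adjustment over all of them. Changes on this scale understate those of low genes. The steps were tested on simulated data. Deviations of same-numbered wild-type libraries correlated over 0.1 in 6 of 6 pairs of cell types (from 0.143 to 0.358), so these numbers may pair wild-type libraries. Between Tex10-deficient cell types the correlations ran from -0.0816 to 0.418, the largest for MI with spermatids, so some of these libraries may be paired too. Over all pairs of groups, 20 of 28 were over 0.1. The main fit held no term for such pairs. Between the genotypes of a cell type, not every correlation was over 0.1: it was 0.203 in spermatogonia, 0.00383 in MI, 0.308 in MII and -0.127 in spermatids.

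Genes were named by rule: in each wild-type step the 6 largest called rises and falls without overlap whose higher group averaged 5 FPKM or more, called genes or the 5 smallest p between genotypes, the 4 most abundant per cell type, the 4 most even, and 6 on the X chromosome. Renamed genes, opposite-start pairs and 1700066O22Rik were named after their values were seen. The genes, marker lists and tests were chosen with earlier results of these data known. Other settings tried were quantile normalization, median-of-ratios scaling, a pseudocount of 0.1 or 5, a filter of 5 FPKM or none, no eBayes trend, a replicate block, a fit without the MII libraries, and each library left out. Python 3.11.15, pandas 2.3.3 and matplotlib 3.10.9 were used.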

Additional observations from a re-analysis of the deposited data

How the results depend on the processing

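The counts of called genes for the wild-type and Tex10-deficient steps between cell types stayed within 1.5 times under each alternative run, and without single libraries they ran from 136 to 168 (wild type, spermatogonia to MI), 168 to 204 (MI to spermatid), 92 to 137 (MI to MII), 242 to 253 (MII to spermatid), and in Tex10-deficient cells 137 to 188 and 171 to 205. The replicate block gave 167 or 170 calls at the first wild-type step and 200 or 201 from MI to spermatid.

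Between genotypes, counts of 0 to 2 moved. In MI there were 2 calls with a pseudocount of 5, for which no share over all genes is given here. After quantile normalization there was 1 (0.369%, against 0.328% of all genes). With the replicate block centred within each genotype there was also 1 (0.369%, against 0.298%). Without the MII libraries there were 5 (1.85%, against 0.518%), and leaving out single libraries moved the count too. In MII there were 6 calls with median-of-ratios scaling, 12 after quantile normalization, 22 with a replicate block shared by both genotypes and 25 with the block within each genotype, each of them lower. Without single libraries MII gave 0 to 77 calls, spermatids 0 to 1, the average 0 to 20 and the F test 0 to 13, of which 77, 20 and 13 came without wild-type MII replicate 1. The average gave 0 calls with a pseudocount of 0.1, 0 after quantile normalization and 0 without the MII libraries. The cause was not tested. For named genes, 542 of the results kept their side of the threshold under the settings other than leaving out a library, 27 gained a call and 7 lost one. Leaving out a library kept 919, gained 13 and lost 28. Of the rises into MII, that of 1700034E13Rik was lost without wild-type MI replicate 2 (limma adjusted p = 0.063). No called direction was reversed.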
